A study of Mus musculus with 2 samples.

Results

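The genes described here are 8 metalloproteases of the ADAM and ADAMTS families: Adam8, Adam9, Adam10, Adam12, Adam15, Adam17, Adam19 and Adamts1. They were taken as every probe set of the array that the platform annotation assigns to exactly 1 of these genes, which gave 9 probe sets of 12488 in all, with 2 for Adam10 and 1 for each other gene. The cells were 3T3, a mouse embryo fibroblast line that normally grows attached, in serum-free DMEM. The fibronectin group had been plated for 30 min on fibronectin at 10 µg/ml, and the suspension group had been kept unattached. Each group is 1 sample hybridised to 1 Affymetrix MG_U74Av2 array, so no value below carries a replicate error or a p-value (the series text speaks of 2 replicates, and only 1 array per group was analysed here), and words such as "higher" speak of this pair of arrays alone. Per the labels, the suspension sample was meant to show what fibronectin induces, and the plated one to follow expression in MAPK signalling.

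ADAM proteins are membrane-anchored enzymes that combine a metalloprotease domain with a disintegrin domain, and several of them cut the extracellular part off other membrane proteins, a step called shedding. Shedding releases growth factors of the EGF family and cytokines, and it starts the processing of Notch and of the amyloid precursor protein, which gamma-secretase then completes. ADAMTS enzymes lack the membrane anchor, carry thrombospondin repeats and act on the extracellular matrix, so Adamts1 is a relative of the membrane proteases and not one itself. In fibroblasts these enzymes are known for turnover of adhesion molecules and matrix and for the supply of growth factors.

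A signal is the brightness of a probe set, scaled so that both arrays have the same 2% trimmed mean. A floor of 490, the mean of both arrays' 40th percentiles, was set before log2 was taken. A gene is called measured where either array reached that floor, and a ratio with 1 array below it is a bound, written as at least N-fold. The arrays carry 34 negative controls, probe sets for antisense strands or for bacterial and yeast RNA. Their 95th percentile was 1873 on fibronectin and 1403 in suspension, and their highest signal was 2527 on fibronectin and 1452 in suspension. The floor thus lies within the range of background, and 12 negative controls reached it on fibronectin and 16 in suspension. A bound whose brighter signal is itself within that range does not show a difference. The ratio of the 3′ to the 5′ probe set of Gapdh, a measure of RNA integrity, was 0.841 on fibronectin and 1.47 in suspension, and that of beta-actin was 1.19 on fibronectin and 1.79 in suspension. The part of this difference in the ratios below was not tested. As each group lies in 1 array, group and array cannot be told apart.

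Of the 8 genes, 5 were measured and 3 lay below the floor in both arrays. Of all 8251 genes with a probe set of their own, 6385 were measured. Adam10 and Adam9 had higher signals on fibronectin, those of Adam10 below the highest negative control of each array. Adam17 reached the floor on fibronectin alone with both signals within background. Adam15 had nearly equal signals in both arrays, and Adam19 was lower on fibronectin. Adam8, Adam12 and Adamts1 gave no ratio. By the brightest probe set, 1 of the 5 measured genes, Adam10, was at least 1.5-fold higher on fibronectin, where 15.9% of all 6385 measured genes were. Likewise 1 of 5, Adam19, was at least 1.5-fold lower, where 22.6% of all genes were. This balance of all genes turned with median scaling, where 1490 genes were higher and 983 lower at 1.5-fold, against 1014 higher and 1440 lower as scaled here. It was nearly even with quantile normalization, at 1168 higher and 1200 lower. At 2-fold, 0 of 5 were higher, against 5.79% of all genes, and 0 were lower, against 9.27%. The median log2 ratio of the 5 genes was 0.47, against -0.09 over all measured genes, but this is the bound of Adam17 itself. Without Adam17, an alternative chosen after seeing the data, the median of the other 4 genes was 0.33. A count of 1 in 5 cannot be set apart from these background shares, and it describes only the members that reached the floor.

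**Figure D1:**
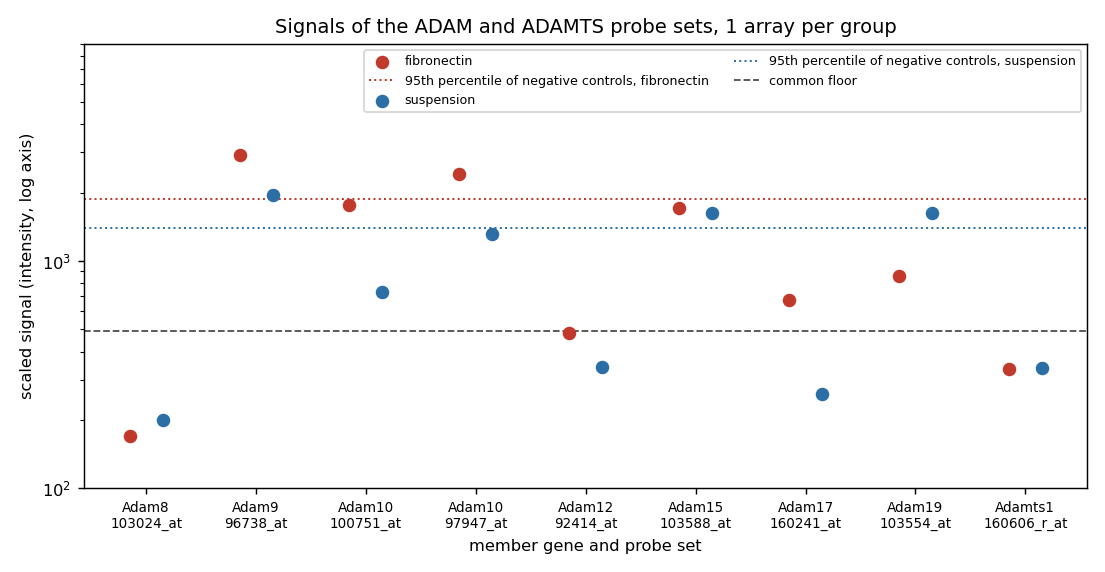
Scaled signals of the 9 probe sets (log axis) on fibronectin (red, left of each pair) and in suspension (blue, right), with the common floor of 490 and each array's 95th percentile of negative controls. Both Adam10 probe sets and that of Adam9 were higher on fibronectin, Adam19 was lower, Adam17 reached the floor on fibronectin alone and lay within background in both arrays, and Adam8, Adam12 and Adamts1 lay below the floor in both arrays.

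Adam10 encodes the sheddase that makes the first cut in Notch receptors and also cleaves cadherins. Its probe set 97947_at had a signal of 2420 on fibronectin and 1314 in suspension, a 1.84-fold higher signal (log2 ratio 0.88). Its other probe set, 100751_at, had 1755 on fibronectin and 732 in suspension, 2.40-fold higher (log2 ratio 1.26). Both probe sets thus had a higher signal on fibronectin. They share the same 2 RNA samples and are no replicates of the condition. Their log2 ratios differed by 0.38. Among 1146 genes with more than 1 measured probe set, the difference between the log2 ratios of the brightest pair had an SD of 0.97 and a median size of 0.59. This corresponds to an SD of 0.69 for the ratio of a single probe set, or 0.75 among genes no brighter than the brightest member. This spread between probe sets is the only measure of error at hand. It comes from the same 2 RNA samples and holds no variation between samples of a group, so it is not the error of the group difference. Both Adam10 ratios exceeded 1 such SD and stayed below 2 of them. Of all measured genes, 7.96% had a higher ratio than 97947_at and 2.83% a higher one than 100751_at. In suspension, 3 of the 34 negative controls were above 97947_at and 12 above 100751_at. On fibronectin the numbers were 1 and 2. Both probe sets thus lay below the highest negative control of each array (2527 on fibronectin and 1452 in suspension). Both ratios are therefore within background.

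Adam9, a broadly expressed sheddase that can release heparin-binding EGF-like growth factor, had a signal of 2919 on fibronectin and 1952 in suspension. Its log2 ratio of 0.58 (1.495-fold) fell just short of the 1.5-fold limit and was smaller than the spread of a single probe set. Its probe set 96738_at was the only 1 of the 9 above every negative control in both arrays.

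Adam17, also called TACE, sheds tumour necrosis factor and most ligands of the EGF receptor. Its probe set 160241_at had 677 on fibronectin and 261 in suspension. As the suspension signal lay below the floor, the gene was at least 1.38-fold higher on fibronectin (log2 ratio 0.47). Of the negative controls, 8 were above it on fibronectin and 23 in suspension, so both signals lay within background.

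Adam15, whose disintegrin domain in the human protein carries an integrin-binding RGD motif, had a signal of 1707 on fibronectin and 1620 in suspension in probe set 103588_at, a 1.05-fold difference (log2 ratio 0.08). This is far inside the spread between probe sets of a gene, and its sign turned to a log2 ratio of -0.40 when the arrays were scaled to the hybridisation spikes.

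Adam19, known as meltrin beta and able to process neuregulin, was the member with a lower signal on fibronectin. Probe set 103554_at had 857 on fibronectin and 1628 in suspension, 1.90-fold lower (log2 ratio -0.93), which exceeded 1 SD of a single probe set. In suspension 0 of the 34 negative controls were above it, and on fibronectin 5 were. Of all measured genes, 11.0% had a still lower ratio.

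The remaining members were at background. Adam12, or meltrin alpha, a protease of muscle and mesenchyme that cleaves Igf-binding proteins, had 482 on fibronectin, just below the floor, and 340 in suspension. Adamts1, a secreted protease that cleaves the proteoglycan versican, had 334 on fibronectin and 340 in suspension, from a probe set of the reduced-specificity type (160606_r_at). Adam8, a protease typical of myeloid cells, had 171 on fibronectin and 200.02 in suspension. Between 12 and 24 negative controls were above each of these signals. Such values do not show that the genes were off, only that these probe sets were not above the floor.

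**Figure D2:**
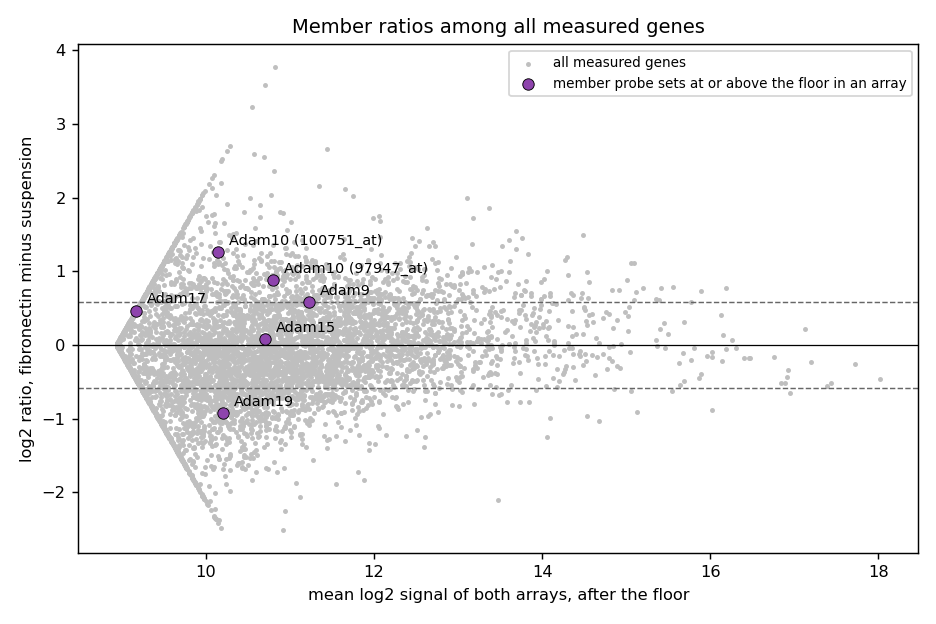
Log2 ratio, fibronectin minus suspension, against the mean log2 signal after the floor for all 6385 measured genes (grey) and the 6 member probe sets that reached the floor in an array (purple), with dashed lines at 1.5-fold. The members lie in the low to middle range of signal, with Adam10 between 0.88 and 1.26 and Adam19 at -0.93, all inside the cloud of other genes.

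The processing moved some of these ratios. With 9 alternatives for each probe set, both Adam10 probe sets stayed above 0 throughout, from 0.41 to 1.09 for 97947_at and from 0.10 to 1.48 for 100751_at. The lowest value of 100751_at came from a floor at the level of the negative controls. Adam9 ranged from 0.11 to 0.79 and was at least 1.5-fold higher under 3 alternatives. Adam17 ranged from 0.19 to 1.37 over the 7 alternatives in which it was measured. The upper end, with a floor at the 20th percentile or none, was a ratio of signals within background. Adam19 stayed below 0, from -1.40 to -0.63, in the 8 alternatives in which it was measured. Scaling to the hybridisation spikes shifted the median log2 ratio of all genes to -0.51, and median scaling to 0.11. Relative to the median of all genes in each setting, Adam9 was between 0.59 and 0.73 higher on the log2 scale, 97947_at of Adam10 between 0.58 and 1.03, 100751_at of Adam10 between 0.11 and 1.497, and Adam17 between 0.47 and 1.52. Adam15 was between 0.07 and 0.23, and Adam19 between -0.88 and -0.57.

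**Figure D3:**
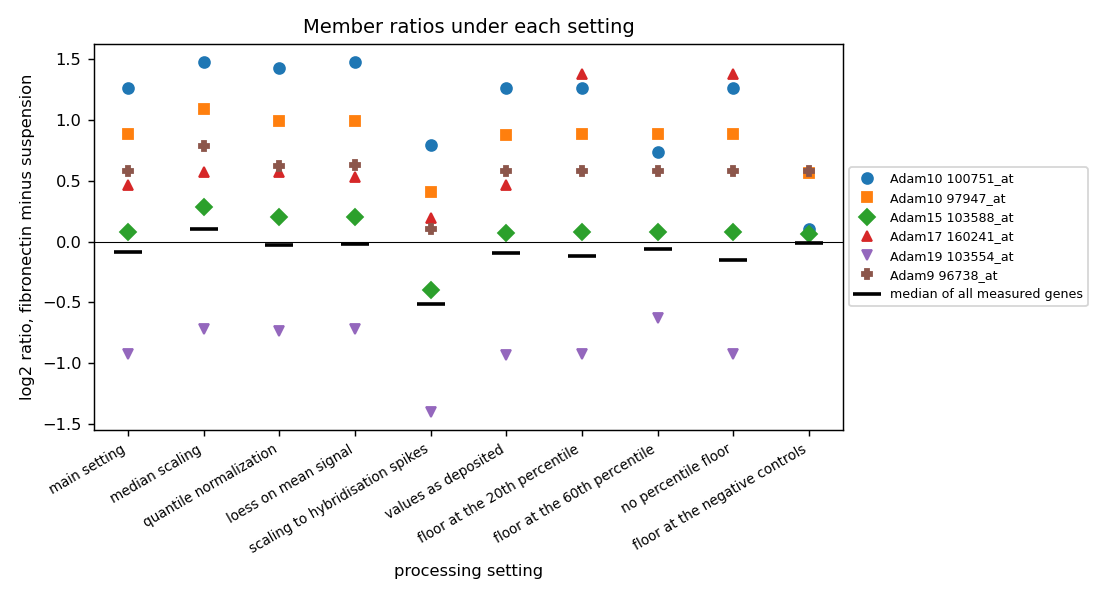
Log2 ratio, fibronectin minus suspension, of each measured member probe set under the main setting and the 9 alternatives that apply to single probe sets, with the median of all measured genes as a black bar. Adam10 and Adam9 stay above 0 and Adam19 below 0 wherever they are measured, while Adam15 falls to -0.40 with scaling to the hybridisation spikes.

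Promoter windows from RefSeq (build GRCm38.p6), each from 250 bases before to 50 after a gene's start, were found for 6 of the 8 genes, Adam8, Adam10, Adam15, Adam17, Adam19 and Adamts1, with 3 windows for Adam19 and 8 in all. That of Adam10 is shown as the member at least 1.5-fold higher on fibronectin, that of Adam17 as the other main sheddase of the family, and 1 of Adam19, the member that was lower, namely the window with an AP-1 match. Capitals mark matches, on either strand, to the AP-1 site TGACTCA or TGAGTCA, the GC box GGGCGG, the CCAAT box CCAAT, the TATA box TATAAA, the Ets motif CCGGAAG and the Egr motif GCGTGGGCG. Neighbouring GC boxes can overlap. The windows are chr9:70678732-70679031 on the plus strand for Adam10, chr12:21373583-21373882 on the minus strand for Adam17 and chr11:46055734-46056033 on the plus strand for Adam19.
Adam10: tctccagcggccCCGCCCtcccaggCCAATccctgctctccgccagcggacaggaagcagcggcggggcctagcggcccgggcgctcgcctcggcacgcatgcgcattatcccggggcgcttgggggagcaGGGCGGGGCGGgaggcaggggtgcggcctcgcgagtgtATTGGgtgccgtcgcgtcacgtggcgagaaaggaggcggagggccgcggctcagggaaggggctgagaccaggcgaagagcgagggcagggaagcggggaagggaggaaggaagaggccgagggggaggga
Adam17: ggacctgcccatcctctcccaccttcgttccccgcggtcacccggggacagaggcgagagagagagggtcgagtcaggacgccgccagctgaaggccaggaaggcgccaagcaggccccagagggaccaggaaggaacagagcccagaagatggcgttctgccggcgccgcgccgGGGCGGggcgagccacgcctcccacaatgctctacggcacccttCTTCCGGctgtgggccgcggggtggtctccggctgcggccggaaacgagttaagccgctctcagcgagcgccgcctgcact
Adam19: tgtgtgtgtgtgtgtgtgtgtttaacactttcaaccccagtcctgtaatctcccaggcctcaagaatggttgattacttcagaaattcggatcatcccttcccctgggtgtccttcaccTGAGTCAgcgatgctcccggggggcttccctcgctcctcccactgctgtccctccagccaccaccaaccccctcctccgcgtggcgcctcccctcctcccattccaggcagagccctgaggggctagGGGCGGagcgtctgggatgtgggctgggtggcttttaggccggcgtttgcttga

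The windows of Adam10 and Adam17 are rich in G and C, at 73.3% and 70.0%, with 32 and 30 CpG dinucleotides. The Adam19 window has 60.3% and 11 CpG dinucleotides. Over all 32851 promoter windows the median GC content is 52.7%, and 10% of windows lie above 69.7%. A GC box occurs in 6 of the 8 member windows and in 35.7% of all windows, and a CCAAT box in 4 of 8 and in 37.4% of all windows. The Adam10 window holds 3 GC boxes and 2 CCAAT boxes, and that of Adam17 holds 1 GC box and 1 Ets match, a motif found in 8.86% of windows. The only AP-1 match of the 8 windows is in the Adam19 window shown, against 5.20% of all windows. These matches are letters in a window and not sites shown to be bound.

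The array holds 10 further ADAM and ADAMTS genes with a probe set of their own, in 13 probe sets. Of these probe sets 7 lay below the floor in both arrays, 3 reached it in 1 array and 3 in both. They include 5 genes known from male germ cells or the male tract, which serve as a view of signals for family members that fibroblasts are not known to use. Adam2, with a role in sperm binding, was below the floor in both of its probe sets. Adam3, another sperm protein, had 1129 on fibronectin and 2282 in suspension in its probe set 161196_r_at, but 119 on fibronectin and 99.5 in suspension in 100526_f_at. Adam5 likewise had 3145 on fibronectin and 4049 in suspension in 162388_r_at, against 138 on fibronectin and 98.6 in suspension in 99474_at. For these genes, a signal above the floor in 1 probe set thus stood beside background in the other. Among the other genes, Adam11, a brain member without protease activity, had 283 on fibronectin and 1019 in suspension, at least 2.08-fold lower. Both Adam11 signals lay within background, so this bound does not show a difference. Adam28 had 2343 on fibronectin and 2283 in suspension in a probe set of the reduced-specificity type.

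**Figure D4:**
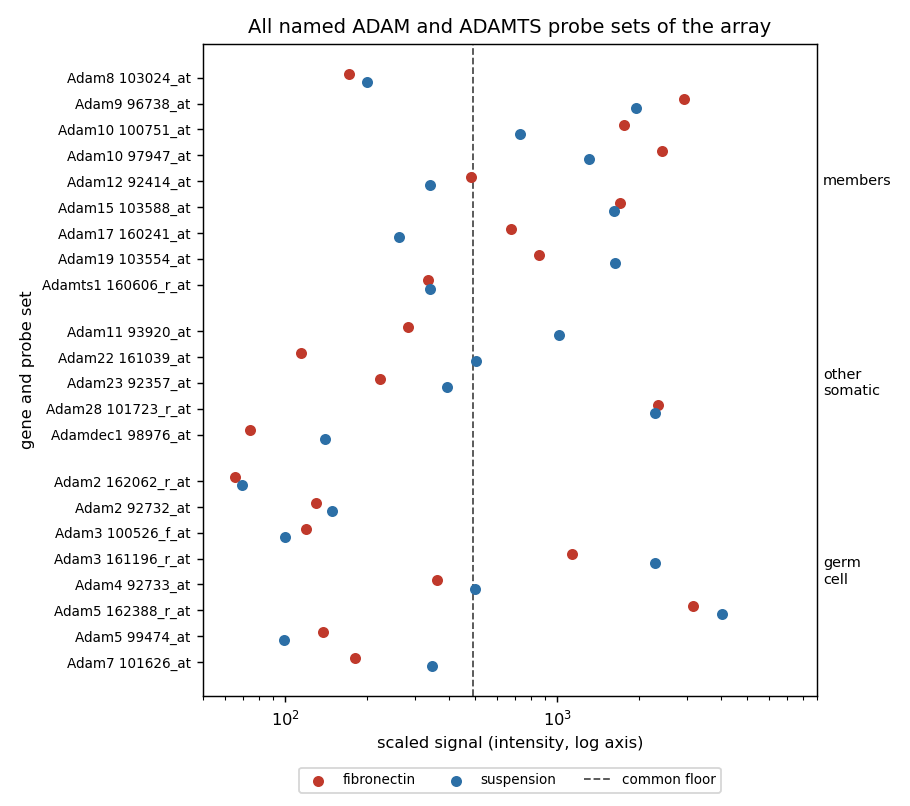
Scaled signals (log axis) of all ADAM and ADAMTS probe sets with 1 gene name, on fibronectin (red, upper of each pair) and in suspension (blue, lower), for the members, the other somatic genes and the germ cell genes, with the common floor as a dashed line. For Adam3 and Adam5 of the germ cells, 1 probe set lies above the floor in both arrays and the other below it.

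Genes that control ADAM maturation and activity stood on both sides of 0. Of 13 genes of this list on the array, 11 were measured. Past 1.5-fold, 4 of them were higher on fibronectin and 3 lower (15.9% and 22.6% of all genes), with a median log2 ratio of 0.32. Timp2, an inhibitor of metalloproteases, had 16762 on fibronectin and 5098 in suspension, 3.29-fold higher. Timp3, the inhibitor of this group that blocks Adam17, had 8117 on fibronectin and 5096 in suspension, 1.59-fold higher. It is named after its values were seen. Tspan5, a tetraspanin of the group that brings Adam10 to the cell surface, had 988 on fibronectin and 429 in suspension, at least 2.02-fold higher. Both Tspan5 signals lay within background, so this bound does not show a difference. The proprotein convertases Pcsk6 and Pcsk5, of the enzyme group that removes ADAM prodomains, were at least 4.26-fold and 2.27-fold lower. Pcsk6 had 302 on fibronectin and 2085 in suspension, and Pcsk5 had 751 on fibronectin and 1708 in suspension.

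Among the proteins that ADAMs shed, EGF family ligands and receptors had 5 measured genes of 8, of which 1 was at least 1.5-fold higher and 0 lower (15.9% and 22.6% of all genes). Erbb3, a neuregulin receptor, had 193 on fibronectin and 667 in suspension, at least 1.36-fold lower, and the ligand Egf had 87.6 on fibronectin and 514 in suspension, at least 1.05-fold lower. The signals of Erbb3 and Egf lay within background in both arrays. Hbegf, the ligand that several ADAMs release, had 2650 on fibronectin and 2417 in suspension (log2 ratio 0.13), and the ligand Ereg had 906 on fibronectin and 926 in suspension. The 1 higher gene, Egfr, was passed over by the naming rule because its probe sets disagreed. One reading was higher by at least 3.32-fold, the next had a log2 ratio of 0.38, and the third was lower by at least 1.54-fold. Both of these bounds rest on signals within background. Of 33 other shed proteins on the array 30 were measured. Past 1.5-fold, 11 were higher on fibronectin and 2 lower, with a median log2 ratio of 0.28. For comparison, the shares of all genes were 15.9% higher and 22.6% lower. Substrates of Adam10 had ratios on both sides of 0, several of them from signals within background. Notch1 had 6677 on fibronectin and 223 in suspension, at least 13.6-fold higher, with a log2 ratio of 0.67 in its second probe set. Cdh2, the neural cadherin, had 1481 on fibronectin and 595 in suspension, 2.49-fold higher, and Cd44 had 2158 on fibronectin and 758 in suspension, 2.85-fold higher, with a log2 ratio of -0.11 in another probe set. Il6ra, the interleukin-6 receptor, had 1229 on fibronectin and 571 in suspension, 2.15-fold higher. The 2 lower genes, named after their values were seen, were Cdh1, the epithelial cadherin, and the Notch ligand Dll1. Cdh1 had 1112 on fibronectin and 2154 in suspension, 1.94-fold lower, and Dll1 had 310 on fibronectin and 766 in suspension, at least 1.56-fold lower. Both Dll1 signals lay within background, so this bound does not show a difference. The chemokine Cx3cl1 counts among the higher genes, with 30521 on fibronectin and 13313 in suspension, while its other probe set had a log2 ratio of -1.31.

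Of the gamma-secretase genes, whose complex cuts the stubs that ADAMs leave, 3 were on the array and measured. Psen2, a catalytic subunit, was at least 2.37-fold higher on fibronectin, with 1162 there and 459 in suspension. Both Psen2 signals lay within background, so this bound does not show a difference. Aph1a was 1.53-fold lower, with 1384 on fibronectin and 2119 in suspension, and Psenen had a log2 ratio of 0.12. Matrix and Igf-binding substrates of ADAM12 and ADAMTS1 had 8 measured genes of 10, with 4 at least 1.5-fold higher and 1 lower (15.9% and 22.6% of all genes). The basement membrane collagens Col4a1 and Col4a2 were 1.99-fold and 1.99-fold higher, with 13473 and 11963 on fibronectin against 6768 and 6021 in suspension. Nid2 was 2.48-fold higher, Bcan, a brain proteoglycan, at least 2.53-fold lower, and Fn1 had 14072 on fibronectin and 14584 in suspension. The Bcan signals, 101 on fibronectin and 1238 in suspension, lay within background. Those of Nid2, 2066 on fibronectin and 834 in suspension, lay below the highest negative control of each array.

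Integrins that bind disintegrin domains or fibronectin had 6 measured genes of 8, with 4 at least 1.5-fold higher and 0 lower, where 15.9% and 22.6% of all genes were. Itga5, the alpha chain of the main fibronectin receptor, had 4604 on fibronectin and 408 in suspension, at least 9.40-fold higher, and Itgb1 was 2.22-fold higher with 29545 on fibronectin and 13299 in suspension. The other Itgb1 probe set, of the reduced-specificity type, had a log2 ratio of 0.31, short of 1.5-fold. Itgav and Itga3 were 1.64-fold and 1.58-fold higher. The Itga3 signals, 2170 on fibronectin and 1371 in suspension, lay below the highest negative control of each array. Proteins that bind the cytoplasmic tails of ADAMs had 14 measured genes of 16, of which 3 were higher and 2 lower past 1.5-fold (15.9% and 22.6% of all genes), and their median log2 ratio was 0.06. Src was at least 1.97-fold lower, with 306 on fibronectin and 963 in suspension. Its relative Yes1 was 1.95-fold higher, with 1051 on fibronectin and 539 in suspension. Mad2l1, a mitotic checkpoint protein that also binds the tail of Adam17, was at least 2.58-fold lower, and Sh3d19 was 1.85-fold higher. The matrix metalloproteinases, the other large group of metalloproteases, had 9 measured genes of 13, of which 4 were higher and 2 lower past 1.5-fold (15.9% and 22.6% of all genes), and their median log2 ratio was 0.11. Mmp13 and Mmp16 were 3.01-fold and 2.88-fold higher, Mmp14 1.63-fold higher and Mmp12 1.67-fold lower. The signals of Mmp16 and Mmp12 lay below the highest negative control of each array. Mmp9, among the 4 higher genes with 3090 on fibronectin and 830 in suspension, had a log2 ratio of -0.48 in its other probe set.

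**Figure D5:**
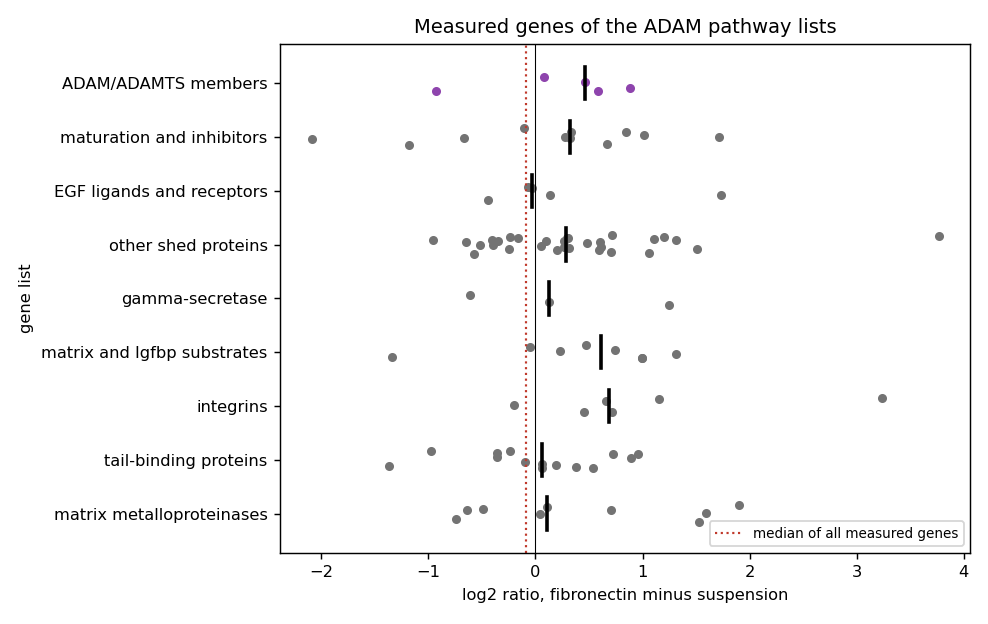
Log2 ratio, fibronectin minus suspension, of every measured gene in the ADAM and ADAMTS members (purple) and 8 related lists (grey), with a black bar at each list's median and a dotted line at the median of all measured genes, -0.09. The members span -0.93 to 0.88, and every list holds genes on both sides of 0.

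Markers of fibroblasts were at or above the floor for 11 of 12 genes in both arrays, with summed signals of 247119 on fibronectin and 167534 in suspension. The collagens Col1a1 and Col1a2 made up 53.3% of this sum on fibronectin and 49.1% in suspension. Past 1.5-fold, 5 of the 11 measured fibroblast markers were higher and 1 lower (15.9% and 22.6% of all genes). Pdgfrb had 7795 on fibronectin and 2327 in suspension, 3.35-fold higher, whereas Vim, which encodes vimentin, had 686 on fibronectin and 1421 in suspension, 2.07-fold lower. Both Vim signals lay below the highest negative control of their array (2527 on fibronectin and 1452 in suspension), so this ratio is within background. Macrophage and blood markers, of interest for Adam8, reached the floor for 4 of 12 genes on fibronectin and 6 in suspension, with sums of 9366 on fibronectin and 12786 in suspension. Muscle markers, of interest for Adam12 and Adam19, did so for 5 of 11 on fibronectin and 4 in suspension, with sums of 5367 on fibronectin and 5701 in suspension. Epithelial markers reached it for 5 of 10 genes in each array and endothelial markers for 1 of 9 on fibronectin and 3 in suspension. Their sums were 4332 and 4504 on fibronectin, against 7273 and 7976 in suspension. Over all 12422 non-control probe sets, 7261 reached the floor on fibronectin and 7629 in suspension. Reaching the floor thus does not by itself show that cells of these types were present. None of these markers had a signal of 0, and their part in the member ratios was not tested. In bulk RNA, fewer cells of a type and less RNA per cell cannot be told apart.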

How the data were processed

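The authors deposited linear intensities, 1 MAS5 signal for each probe set, as the submitters' processing notes name that tool. The MAS5 version and target level are not given here. The instrument settings hold no expression values and were not used. With 1 array per group the number of arrays limits the precision, and no test was run.

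Arrays were scaled by the 2% trimmed mean of the 12422 non-control probe sets, with factors of 1.00 on fibronectin and 0.999 in suspension. The floor was then applied and log2 taken. A gene with several probe sets was read from the brightest by mean log2 signal. Names came from the platform annotation, and all 9 member probe sets matched RefSeq by gene ID. Named were all members, up to 4 genes with the largest ratios of each list, passing over those with an opposite probe set beyond 0.3, and Fn1, Itga5 and Itgb1. Of the marker lists, counts and sums are given, with Pdgfrb and Vim as the largest ratio in each direction among fibroblast markers, and the names the rule gives in the others are not printed. With 2 arrays no likeness of pattern between genes could be formed. Members and lists were chosen with earlier results of these data known. 12 alternatives of scaling, floor and probe set were run. Python 3.11.15, pandas 2.3.3, scipy 1.17.1 and statsmodels 0.14.6 were used, and the code was tested on simulated data.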

Additional observations from a re-analysis of the deposited data

How the results depend on the processing

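The median log2 ratio of the measured members lay between 0.11 and 0.56 under the 12 alternatives; as reported it is the bound of Adam17, and it was 0.33 with Adam17 left out, an alternative chosen after seeing the data. No measured ratio past 1.5-fold changed sign. Between 3 members (floor at the negative controls) and 8 (floor at the 20th percentile or none) were measured, against 5. Members at least 1.5-fold higher numbered 2 with median scaling, quantile normalization, loess, the floor at the 20th percentile or no floor, and 0 with scaling to the spikes or a floor at the negative controls, against 1. Those 1.5-fold lower numbered 0 with the floor at the negative controls, against 1. At 2-fold, 1 was higher with median scaling, a lower or no floor or the mean of probe sets, and 1 was lower with the spikes, against 0 and 0.

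Median scaling turned the balance of all genes at 1.5-fold to 1490 higher and 983 lower. Over all genes, the 1.5-fold higher count was 1014 and became 367 with the spikes, 1557 and 610 with the floor at the 20th and 60th percentile, 1690 without a floor and 433 at the negative controls. The lower count was 1440 and became 2919 with the spikes, 683 at the 60th percentile, 2535 without a floor and 311 at the negative controls. At 2-fold, 370 higher became 596 with median scaling, 134 with the spikes, 817 and 155 at the 20th and 60th percentile, 931 without a floor and 96 at the negative controls. The 592 lower became 1409, 1179, 158, 1542 and 47 under the last 5 of these. The cause of the shift with the spikes was not tested. Signals near background limit Adam17, Adam19 and Adam15 on fibronectin, and both Adam10 probe sets in both arrays. No paired analysis was possible because each group has 1 array.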
